A study of Mus musculus with 6 samples.

Results

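The inflammatory chemokines described here are Ccl3, Ccl4, Ccl5, Ccl6, Ccl9, Cxcl2, Cxcl10 and Xcl1, the members of a list of 8 genes. Each was represented by the 1 probe set on the array whose annotation names that gene and no other, so 8 probe sets carried the values, and all 8 members were found among the 21640 probe sets that name 1 gene. The measurements came from Affymetrix arrays hybridised with RNA of CD4+ T cells, the lymphocytes that help and restrain other immune cells, from mice of strain C57BL/6 and 6 weeks of age. The 3 CBS-KO arrays held RNA of mice lacking cystathionine beta-synthase, the enzyme that condenses homocysteine with serine, and the 3 WT arrays held RNA of wild-type mice. The labels name the arrays of a group biological replicates. They give neither the knockout allele nor the mice's sex, and neither the isolation method nor a purity of the cells is stated there. Whether the knockout was limited to a cell type is not stated either.

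Chemokines are small secreted proteins that draw leukocytes along a gradient by binding receptors coupled to G proteins. Inflammatory members are made on stimulation by macrophages, neutrophils, NK cells and activated T cells, whereas homeostatic members position cells in lymphoid tissue. In T cells, Ccl3, Ccl4, Ccl5 and Xcl1 are known as products of activated and memory cells, and Ccl6 and Ccl9 as products of myeloid cells in mice.

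A few facts about the arrays as a whole bear on every value below. Values are given as log2(intensity + 16), with medians per array of 7.37 to 7.55. The T cell genes Cd4 and Cd3e had levels of 12.49 to 13.04 and 12.60 to 13.22 in CBS-KO arrays. In WT arrays they had 13.23 to 13.42 and 13.29 to 13.48. Both defining markers were thus bright in every array, and each CBS-KO value was under the lowest WT value. Neither marker passed limma's test, which is described further on (Cd4 -0.57, adjusted p = 0.0511, and Cd3e -0.46, adjusted p = 0.101). A separation in this direction was seen for 21.7% of all tested probe sets. The probe set of Cbs read 7.25, 7.63 and 7.35 in CBS-KO arrays and 7.37, 7.48 and 7.19 in WT arrays, so it did not separate the genotypes and gives no check of their labels. Where on the gene this probe set lies relative to the deleted part is not stated. Probe sets of Y-linked genes averaged 9.23 and 9.12 in CBS-KO 1 and CBS-KO 2, 5.22 in CBS-KO 3 and 5.29 to 5.35 in WT arrays. Xist, the RNA of the inactive X chromosome, went the opposite way. It was at 6.02 and 6.18 in CBS-KO 1 and CBS-KO 2, 12.23 in CBS-KO 3 and 12.61 to 12.68 in WT arrays. By both signals CBS-KO 1 and CBS-KO 2 read as male and the other arrays as female, though the labels state no sex. Y-linked signal was thus partly confounded with genotype, and only CBS-KO 3 stands on the CBS-KO side without it.

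The sequences that the results refer to are the start regions of 4 members, taken from RefSeq (GRCm38.p6, 250 bases before to 50 bases after the annotated start, 5' to 3' on the gene's strand). Those of Ccl6 (chr11:83593038-83593337, minus strand) and Ccl9 (chr11:83578587-83578886, minus strand) are shown because these neighbours had the largest differences, and the capitals mark the stretch that aligns between them. That of Ccl3 (chr11:83649329-83649628, minus strand) is the remaining member with a called difference, and the capitals mark the letters TTCCTC, which read GAGGAA on the other strand, the core bound by the myeloid factor PU.1. That of Cxcl10 (chr5:92348840-92349139, minus strand) is the promoter of the interferon-induced member, and the capitals mark a match to the interferon response motif, GAAA repeated after a gap of 2 bases.
Ccl6: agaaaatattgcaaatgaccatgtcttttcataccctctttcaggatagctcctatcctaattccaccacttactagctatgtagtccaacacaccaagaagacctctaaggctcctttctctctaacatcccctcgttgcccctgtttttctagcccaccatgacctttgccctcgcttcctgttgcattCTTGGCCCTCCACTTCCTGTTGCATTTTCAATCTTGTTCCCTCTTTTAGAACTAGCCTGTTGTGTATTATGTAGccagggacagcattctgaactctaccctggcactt
Ccl9: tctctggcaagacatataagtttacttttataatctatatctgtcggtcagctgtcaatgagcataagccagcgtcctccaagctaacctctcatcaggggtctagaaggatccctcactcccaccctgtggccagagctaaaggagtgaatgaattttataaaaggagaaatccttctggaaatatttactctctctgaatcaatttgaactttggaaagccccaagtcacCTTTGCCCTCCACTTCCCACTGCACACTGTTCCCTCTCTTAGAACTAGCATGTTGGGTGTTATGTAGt
Ccl3: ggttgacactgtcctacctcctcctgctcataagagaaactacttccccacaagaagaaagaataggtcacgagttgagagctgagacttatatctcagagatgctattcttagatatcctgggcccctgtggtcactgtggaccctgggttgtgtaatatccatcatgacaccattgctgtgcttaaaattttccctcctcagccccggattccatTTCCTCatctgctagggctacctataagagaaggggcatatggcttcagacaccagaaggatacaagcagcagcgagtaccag
Cxcl10: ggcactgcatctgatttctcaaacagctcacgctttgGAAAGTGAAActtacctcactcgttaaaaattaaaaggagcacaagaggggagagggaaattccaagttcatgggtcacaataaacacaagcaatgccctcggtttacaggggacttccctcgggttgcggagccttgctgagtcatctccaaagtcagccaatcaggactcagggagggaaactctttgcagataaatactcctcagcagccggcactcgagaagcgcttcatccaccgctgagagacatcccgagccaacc
In the local alignment of Ccl6 with Ccl9, 58 of 74 aligned positions were identical (78.4%) and 7 were gaps. Its score of 38 (1 for a match, -1 for a mismatch, -3 for opening and -1 for extending a gap) compares with 13 for the next of the 15 pairs among the 6 members that have an entry in the promoter table. Ccl4 and Ccl5 have none.

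Among the members, 3 chemokine genes were higher in CBS-KO cells: Ccl6, Ccl9 and Ccl3, by 6.7-fold, 5.48-fold and 3.69-fold on the log2(intensity + 16) scale. No member was lower. Ccl5, Xcl1 and Cxcl10 did not pass the test, and Ccl4 and Cxcl2 lay below the filter on low values and were not tested. The test was limma's moderated linear model over 20856 probe sets whose mean level lay above the 40th percentile (a log2 level of 6.99), with p adjusted by Benjamini and Hochberg. It called 5.09% of all tested probe sets higher in CBS-KO and 4.47% lower at an adjusted p of 0.05, or 9.57% in either direction. Of the 6 tested members, 3 were called, and each of the 6 had a WT mean above the filter level, so none entered the test through its CBS-KO values alone. The median difference of the 6 was 1.06, against -0.05 over all tested probe sets. That median falls in the gap between Ccl3 (1.88) and Cxcl10 (0.24), so it describes no single member and no rise of the whole list. The members and the other gene lists were chosen with earlier results of these data known. Because each sample is bulk RNA, more cells of a type and more RNA per cell cannot be told apart.

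**Figure D1:**
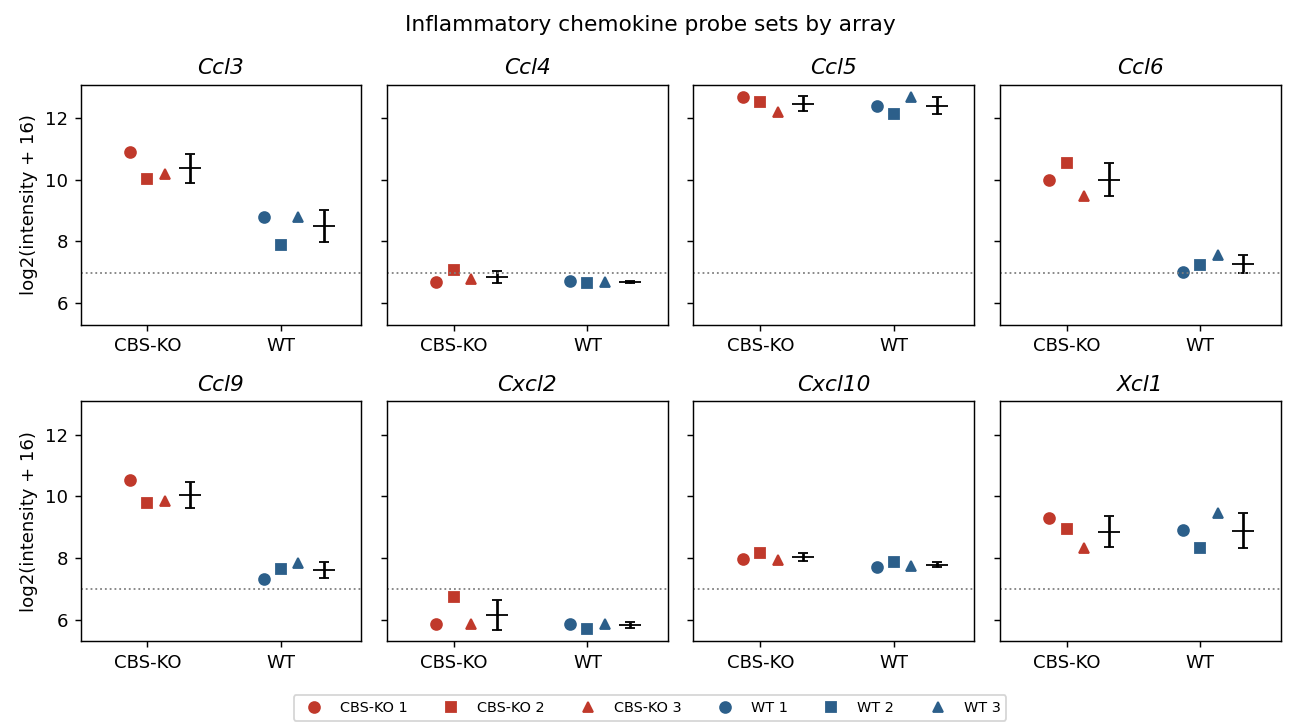
Log2(intensity + 16) of each chemokine probe set (y axis) in the CBS-KO arrays (red, left) and the WT arrays (blue, right); symbols are arrays, the black mark and bar are the mean and SD (n = 3), and the dotted line is the filter level of 6.99. For Ccl3, Ccl6 and Ccl9 all CBS-KO points lie above all WT points, while Ccl5 and Xcl1 overlap and Ccl4 and Cxcl2 lie at or near the line or below it.

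Ccl6, known in mice as C10, is a CC chemokine of myeloid cells that acts through Ccr1. Its log2 level was 10.004, 10.55 and 9.48 in CBS-KO 1 to 3, against 7.01, 7.22 and 7.57 in WT 1 to 3. All CBS-KO arrays lay above all WT arrays, and the WT arrays stood close to the filter level. The difference of the means was 2.74 (SE 0.29, 95% confidence interval 2.06 to 3.43, n = 3 per group, limma adjusted p = 0.00836). The call was lost without WT 1 (difference 2.62, adjusted p = 0.0547) and without WT 2 (2.72, adjusted p = 0.0603), within a range of 0.0026 to 0.0603 over all 19 settings. The size of a change that starts near the filter level depends on the offset, and it was 2.87 with an offset of 1 and 2.42 with an offset of 64.

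Ccl9, also called MIP-1 gamma, is a CC chemokine of mouse macrophages and osteoclasts that also binds Ccr1. Its level was 10.54, 9.78 and 9.84 in CBS-KO 1 to 3, against 7.32, 7.63 and 7.85 in WT 1 to 3. The groups did not overlap, and CBS-KO 1 was the highest array. The difference was 2.45 (SE 0.25, 95% confidence interval 1.86 to 3.04, limma adjusted p = 0.00763). The call was lost without WT 2 (2.47, adjusted p = 0.0541, range over the settings 0.00294 to 0.0541).

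Ccl3, or MIP-1 alpha, recruits monocytes and T cells and is made by macrophages, neutrophils, basophils, NK cells and activated T cells. Its level was 10.91, 10.02 and 10.20 in CBS-KO 1 to 3, against 8.80, 7.89 and 8.79 in WT 1 to 3. All CBS-KO arrays lay above all WT arrays, and WT 2 was lower than the other two WT arrays. The difference was 1.88 (SE 0.33, 95% confidence interval 1.10 to 2.67, limma adjusted p = 0.0246). The call was lost without WT 1 (2.04, adjusted p = 0.0959), WT 2 (1.58, 0.0886), WT 3 (2.03, 0.057) or CBS-KO 1 (1.62, 0.0869), and with CBS-KO 3 alone against the WT arrays (1.71, 0.0514), within a range of 0.0107 to 0.0959.

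Ccl4, or MIP-1 beta, attracts monocytes and T cells and is encoded next to Ccl3. Its level was 6.70, 7.08 and 6.78 in CBS-KO 1 to 3, against 6.70, 6.66 and 6.67 in WT 1 to 3. Only CBS-KO 2 stood above the filter level, CBS-KO 1 lay within the WT range, and the difference of 0.17 has no test.

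Ccl5, or RANTES, is stored by memory and cytotoxic T cells and NK cells and attracts T cells, monocytes and eosinophils. Its probe set was bright, at 12.71, 12.53 and 12.22 in CBS-KO 1 to 3, against 12.41, 12.14 and 12.69 in WT 1 to 3. The groups overlapped, and the difference of 0.07 (SE 0.18, 95% confidence interval -0.35 to 0.49) had a limma adjusted p of 0.831. Xcl1, or lymphotactin, is made by activated CD8 T cells and NK cells and attracts cross-presenting dendritic cells through Xcr1. Its level was 9.31, 8.95 and 8.32 in CBS-KO 1 to 3, against 8.89, 8.31 and 9.46 in WT 1 to 3. The groups overlapped, with a difference of -0.03 (SE 0.36, 95% confidence interval -0.88 to 0.82, limma adjusted p = 0.971), an interval wide enough to hold changes of nearly 1 log2 unit either way.

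Cxcl10, or IP-10, is induced by interferons and recruits Cxcr3-bearing effector T cells. Its level was 7.98, 8.16 and 7.93 in CBS-KO 1 to 3, against 7.72, 7.87 and 7.75 in WT 1 to 3. The CBS-KO arrays all lay above the WT arrays, as they did for 15.0% of all tested probe sets and for 4 of the 6 tested members. Of the tested members 0 had all CBS-KO arrays below the WT arrays, against 21.7% of all tested probe sets. For Cxcl10 the gap between the nearest arrays was smaller than the SD within either group. The difference of 0.24 (SE 0.12, 95% confidence interval -0.04 to 0.52) had a limma adjusted p of 0.21. Cxcl2, or MIP-2, attracts neutrophils through Cxcr2. Its level was 5.85, 6.72 and 5.87 in CBS-KO 1 to 3, against 5.87, 5.70 and 5.87 in WT 1 to 3, all below the filter level. Only CBS-KO 2 stood apart, the other CBS-KO arrays lay within the WT range, and the difference of 0.34 was not tested.

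**Figure D2:**
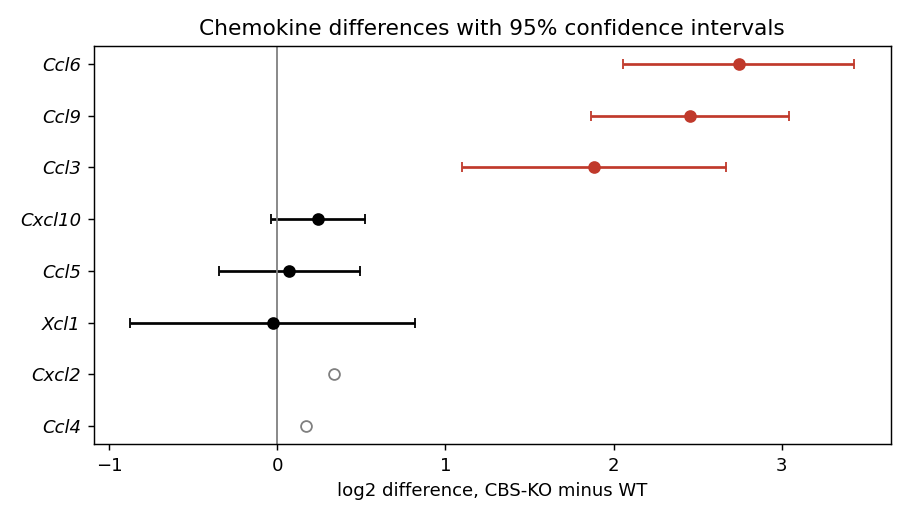
Log2 difference (x axis), CBS-KO minus WT, of the 8 chemokine probe sets, with 95% confidence intervals for the 6 tested ones (red, adjusted p under 0.05; black, not past it); open circles were below the filter and have no test. Ccl6, Ccl9 and Ccl3 lie between 1.88 and 2.74, and the intervals of Cxcl10, Ccl5 and Xcl1 include 0.

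The members whose groups did not overlap differed in which CBS-KO array was highest. Ccl3 and Ccl9 were highest in CBS-KO 1, and Ccl6 and Cxcl10 in CBS-KO 2. Ccl5 and Xcl1 shared their pattern over arrays, being lowest in WT 2 and CBS-KO 3 and highest in CBS-KO 1 and WT 3. Among the 6 pairs of members whose groups overlap, Ccl5 and Xcl1 had Pearson's r = 0.98 and Spearman's rho = 0.94 over the 6 arrays (permutation p = 0.00833 and 0.0167, adjusted over the 6 pairs 0.05 and 0.1). Without CBS-KO 3 and WT 2, the arrays farthest from the median of Ccl5, r was 0.93 over 4 arrays. Ccl4 and Cxcl2 had r = 0.97 and rho = 0.75 (permutation p = 0.0278 and 0.111, adjusted 0.0833 and 0.333), and r fell to 0.62 without CBS-KO 2 and CBS-KO 3, so this relation rested on those arrays.

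Over all tested probe sets that name 1 gene, the genes closest to each member were ranked by Pearson's r over the 6 arrays, as a description in which arrays of 2 groups are pooled. Closest to Ccl6 were Fes, a myeloid tyrosine kinase (r = 0.9995), Tgfbi, an extracellular matrix protein of macrophages (0.997), and Mmp8, the neutrophil collagenase (0.997). Closest to Ccl9 were Tifab (0.993), Fn1, fibronectin (0.992), and Atp6ap1 (0.992). Fes, Tgfbi, Mmp8, Tifab and Fn1 were called higher in CBS-KO, by 1.10, 3.01, 3.35, 2.38 and 3.69. Atp6ap1 was not called (0.15, limma adjusted p = 0.202). For a member whose groups did not overlap, ranking by r picks genes that separate likewise, so differences in these genes are no independent finding. Mmp8 averaged below the filter level in WT arrays and was tested only through its CBS-KO values. For Ccl3 they were Chst14 (0.989), S100a4 (0.987) and Hspa13 (0.984), of which S100a4, a calcium-binding protein of motile cells, was called higher (0.64, limma adjusted p = 0.0347). The gene closest to Ccl5 was Xcl1, and the gene closest to Xcl1 was Ccl5, ahead of Niban1 (0.977) and Ahnak (0.973) for Ccl5 and of 2410022M11Rik (0.978) and Id2 (0.962) for Xcl1. Closest to Cxcl10 were Acacb, Ctnnd2 and Nrg2 (0.989 to 0.991), none of them called.

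Of the 8 members, 5 lie together on chromosome 11, in the order Ccl5, Ccl9, Ccl6, Ccl3, Ccl4 among the measured protein-coding genes of the RefSeq annotation. The 3 members that rose are the inner ones, between Ccl5 (0.07) and Ccl4 (0.17, below the filter and not tested). Among the 6 measured genes on each side, a window chosen after the values were seen, 8 were tested and 1 was higher. That gene was Wfdc17, encoding a whey acidic protein family member of activated macrophages, which lies next to Ccl4. Its level was 10.26, 11.96 and 10.14 in CBS-KO 1 to 3, against 6.50, 6.39 and 7.51 in WT 1 to 3, a difference of 3.99 (limma adjusted p = 0.0142). Its WT mean of 6.80 lay below the filter level, so it was tested only through its high CBS-KO values. Further on, Wfdc18 differed by 0.07 (not tested) and Wfdc21 by -0.01, and Taf15 (-0.15) and Heatr6 (-0.12) on either side were not called.

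**Figure D3:**
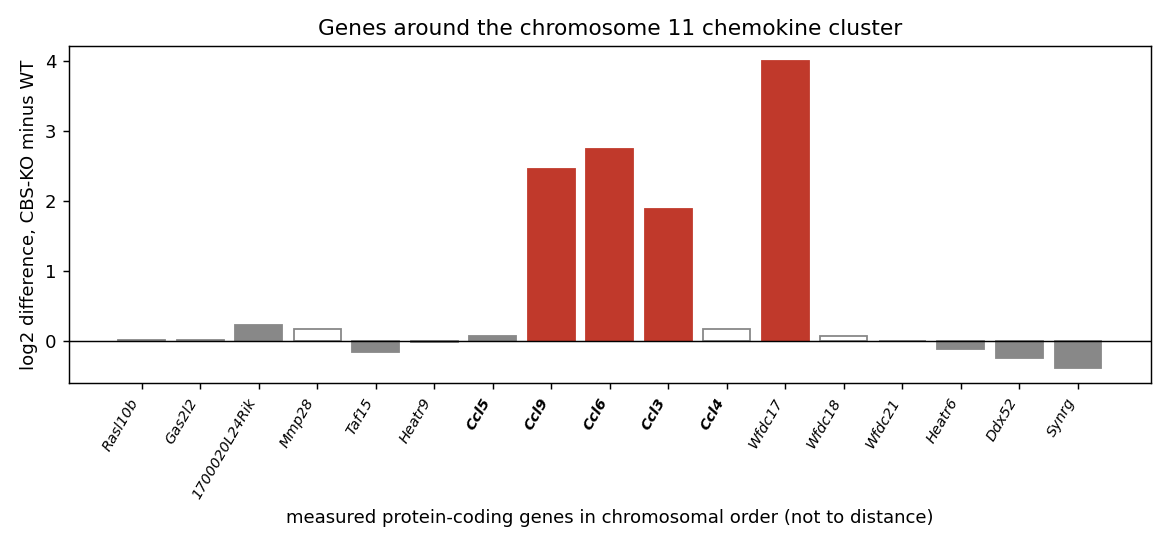
Log2 difference (y axis), CBS-KO minus WT, of the measured protein-coding genes around the chemokine cluster of chromosome 11 in chromosomal order (x axis, members in bold). Red bars passed an adjusted p of 0.05, grey bars did not and open bars were below the filter; Ccl9, Ccl6, Ccl3 and Wfdc17 stand between 1.88 and 3.99, and the remaining bars lie between -0.39 and 0.22.

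The promoter windows were searched on both strands for motifs of factors known to act on chemokine genes. The interferon response motif was found in Cxcl10 alone among the 6 members with an entry, and in 3.44% of all 32851 promoters. The NF-kB consensus was found in Cxcl2, Cxcl10 and Ccl9, and in 8.46% of all promoters. GAGGAA was found in Ccl3 and Cxcl2 (28.3% of all), and AGGAAG, which shares the letters AGGAA with it, in Ccl6, Cxcl2 and Xcl1 (35.4% of all). TATAAA was found in Ccl9 alone (13.6% of all), TGANTCA, the AP-1 motif, in Cxcl10 and Ccl9 (7.81% of all), and TTGCNNNAA, a C/EBP motif, in none of the 6 (9.56% of all). The 3 members that rose shared none of these motifs, and a match describes letters only.

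Genes in the list of receptors set beside the members rose in part. Of 9 measured receptor genes, 7 were tested, and 3 were higher and 0 lower, against 6.62% and 4.45% of all tested genes. Cxcr2, the neutrophil receptor for Cxcl2, had a level of 9.44, 10.65 and 8.66 in CBS-KO 1 to 3, against 5.65, 6.03 and 6.54 in WT 1 to 3 (difference 3.51, SE 0.50, limma adjusted p = 0.0153), so its WT arrays lay below the filter level and it was tested only through its CBS-KO values. Ccr3, the eosinophil and basophil receptor that Ccl5 binds, had 8.41, 9.10 and 9.70 in CBS-KO arrays and 7.11, 7.02 and 7.64 in WT arrays (1.81, SE 0.34, adjusted p = 0.0284). Ccrl2, an atypical receptor that presents chemerin, was higher by 0.85 (SE 0.19, limma adjusted p = 0.043). Chemerin is not a member, so of the called genes only Cxcr2 and Ccr3 are given here with a member as ligand. Ccr1, the receptor of Ccl3, Ccl6 and Ccl9, was below the filter and not tested, with 6.94, 7.12 and 6.30 in CBS-KO arrays against 5.76, 5.52 and 5.67 in WT arrays. Those groups did not overlap. Cxcr3, the receptor of Cxcl10, was bright and overlapped between the groups (-0.13, SE 0.22, adjusted p = 0.739), and Xcr1, the receptor of Xcl1, did not pass (1.04, SE 0.38, adjusted p = 0.119). Ackr1 (0.76, adjusted p = 0.0551) and Ackr2 (0.03, 0.933), both scavenging receptors, were not called, and Ccr1l1 was not tested. The count of 3 was 0 without WT 1 or WT 2, 1 without CBS-KO 1, 2 without WT 3 and 0 with the filter at the 60th percentile.

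None of the other chemokines passed the test. Of 30 other chemokine genes, 28 were measured, 17 of them below the filter, and of the 11 tested 0 passed limma's test (median 0.04, against -0.01 over all tested genes). At an unadjusted p under 0.05 there were 3: Cxcl9, the interferon-gamma-induced relative of Cxcl10 (0.51, SE 0.17, adjusted p = 0.0942), Ccl17 (-0.29, SE 0.10, 0.108) and Ccl25 (-0.32, SE 0.13, 0.152). With the replicate number as a block 1 passed, and without CBS-KO 2 also 1. Ccl19, a homing chemokine of lymphoid stroma, differed by -0.66 with overlapping groups (SE 0.48, adjusted p = 0.393). The neutrophil chemokine Cxcl1 (0.04) and the platelet chemokines Pf4 (0.39) and Ppbp (0.11) were not called.

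Genes of pathways that act on the members, both regulators and targets such as Cxcl9, were counted in 3 lists. In the NF-kB and early inflammatory list, 15 genes were tested and 1 was higher, Il1b, the fever cytokine interleukin 1 beta, at 8.80, 10.57 and 8.35 in CBS-KO arrays against 6.79, 6.93 and 6.99 in WT arrays (2.34, SE 0.53, limma adjusted p = 0.0438). Its WT mean of 6.90 lay below the filter level, so this one call entered the test through the CBS-KO arrays. The list's median was -0.11, and Tnf (-0.49, adjusted p = 0.115), Rel (-0.75, 0.0955) and Nfkbia (-0.27, 0.283) did not pass. Of 15 tested genes of the interferon pathways that induce Cxcl10, 2 were higher (13.3%, against 6.62% of all tested genes). Only 1 was lower (6.67%, against 4.45%). The median was -0.24, with 11 differences negative and 4 positive. Irf8, a myeloid and B cell factor, rose by 1.43 (SE 0.29, adjusted p = 0.0341) and the receptor subunit Ifngr1 by 0.51 (SE 0.09, 0.0259), while Irf9, the DNA-binding part of the interferon-stimulated complex, was lower (-0.68, SE 0.12, 0.0243). Ifng itself did not pass (-0.50, SE 0.23, 0.199). Of 19 tested lymphocyte activation genes, 1 was higher, the early response gene Ier3 (0.71, SE 0.10, 0.0149), with a median of -0.25. The shares called higher in the NF-kB and activation lists, 1 of 15 and 1 of 19, stood near the 6.62% of all tested genes, so these counts set neither list apart. Egr2 (-0.85, SE 0.21, 0.05) and Cd69 (-0.56, SE 0.23, 0.151), both markers of T cell receptor stimulation, did not pass. These counts moved with single arrays. Without WT 1, WT 2 or CBS-KO 1 each of the 3 lists had 0 calls, without WT 3 they had 0, 2 and 1, and without CBS-KO 2 they had 6, 9 and 5, in the order given here.

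Markers of several other cell types were higher in CBS-KO arrays, while those of CD8 T cells were not called. Over all tested genes, 6.62% were higher and 4.45% lower. Called genes are named by smallest p, not by largest difference, and for NK cells all called genes are named. Called genes with a WT mean below the filter level are named besides. Of 14 neutrophil genes, 13 were higher, with a summed intensity of 30309 to 40308 in CBS-KO arrays against 1583 to 3481 in WT arrays, among them the antimicrobial genes Lcn2 (5.33), S100a9 (3.86) and S100a8 (3.95). Of these 13, 5 averaged below the filter level in WT arrays and so were tested only through their CBS-KO values (Cxcr2, Mmp8, Retnlg, S100a8 and S100a9), as was 1 called gene each of the monocyte (Cd14), erythroid (Epb42) and dendritic (Clec9a) lists. Of 12 tested monocyte and macrophage genes, 10 were higher (17801 to 24276 against 4476 to 7166), among them the lysozyme gene Lyz2 (3.67), Spi1, which encodes PU.1 (2.42), and the complement gene C1qb (2.37). Of 7 measured erythroid genes, 7 were higher (14223 to 33141 against 1385 to 2953), among them the heme synthesis gene Alas2 (3.002), the anion exchanger gene Slc4a1 (4.31) and Rhag (4.28). Basophil and mast cell genes (2 of 6 higher, 2458 to 6843 against 1455 to 2118) were higher in part, with Kit (1.55) and Gata2 (1.19) called. The other tested genes of that list, Mcpt8, Cpa3, Ms4a2 and Prss34, were not called (limma adjusted p = 0.101 to 0.286). Among these, only Ms4a2 did not overlap between the groups. Dendritic cell genes (3 of 9 higher, 2947 to 5562 against 1735 to 2331) also rose in part, with Flt3 (2.19), Zbtb46 (0.56) and Clec9a (1.69) called. Of 11 tested NK cell genes, 4 were higher and 1 lower (12868 to 19062 against 7490 to 12049), the higher ones being Fcer1g (2.22), Gzma (1.38), Tyrobp (2.17) and Ncr1, which encodes the NK cell receptor NKp46 (2.06, limma adjusted p = 0.0152), and the lower one Eomes, a transcription factor of NK and memory T cells (-0.71). Fcer1g and Tyrobp are also made by myeloid cells. Of 6 CD8 T cell genes, limma called 0, with 0 also at an unadjusted p under 0.05 (2289 to 4331 against 3153 to 3637). Platelet genes (2 of 5 higher, Gp9 by 1.34 and Gp5 by 0.55, 2000 to 3465 against 1690 to 2371) and B cell genes (1 of 7 higher, Ighm by 1.53, 9050 to 24010 against 8711 to 12477) overlapped in their sums. Of 10 CD4 T cell genes, 0 were higher and 4 lower (33377 to 52856 against 62992 to 67638), among them Cd3d (-1.12), Cd3g (-0.74) and Cd2 (-0.80).

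Defining markers below the filter were Ms4a7 and Fcgr1 of macrophages, Klre1 of NK cells, and Fcer1a and Cd200r3 of basophils, and none was at 0. Counts of called markers fell without WT 1, WT 2 or CBS-KO 1, to 5, 5 and 6 for neutrophils, 1, 0 and 4 for monocytes and macrophages and 3, 2 and 2 for erythroid genes. The part of these cell types in the chemokine differences was not tested.

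**Figure D4:**
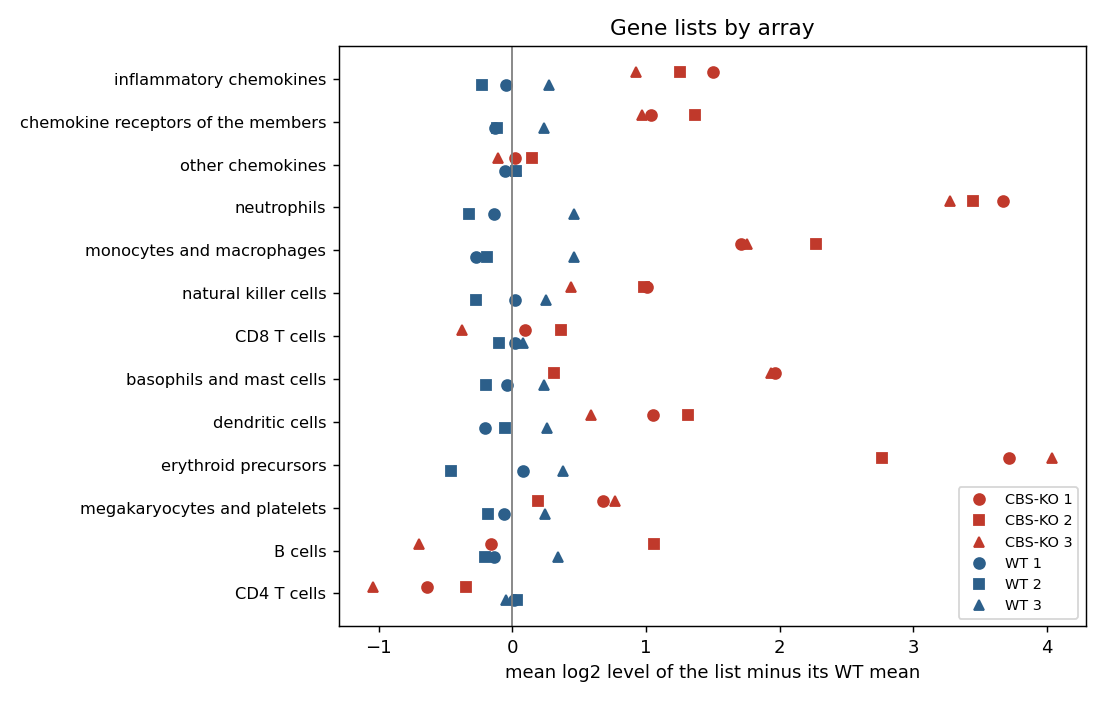
Mean log2 level of the tested genes of each list minus the list's WT mean (x axis) in the CBS-KO arrays (red, upper row) and the WT arrays (blue, lower row); symbols are arrays. The neutrophil and erythroid lists stand highest in CBS-KO arrays, between 2.77 and 4.03. The inflammatory chemokines, of which 3 of the 6 tested genes were called, lie lower, at 1.50, 1.26 and 0.92 in CBS-KO 1 to 3. The other chemokines and CD8 T cell list straddle 0.

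The stability of the 3 calls was set out over the alternatives. Without WT 2, 0 members passed, without WT 1 only Ccl9 did (adjusted p = 0.0496), and without CBS-KO 1 or WT 3 Ccl6 and Ccl9 did. With Y-linked signal as a model term, the CBS-KO estimate rests on CBS-KO 3 alone, which is assumed to vary like the other arrays. The differences were then 1.71 for Ccl3, 2.22 for Ccl6 and 2.24 for Ccl9, and with 1 CBS-KO array they give no check on the calls.

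**Figure D5:**
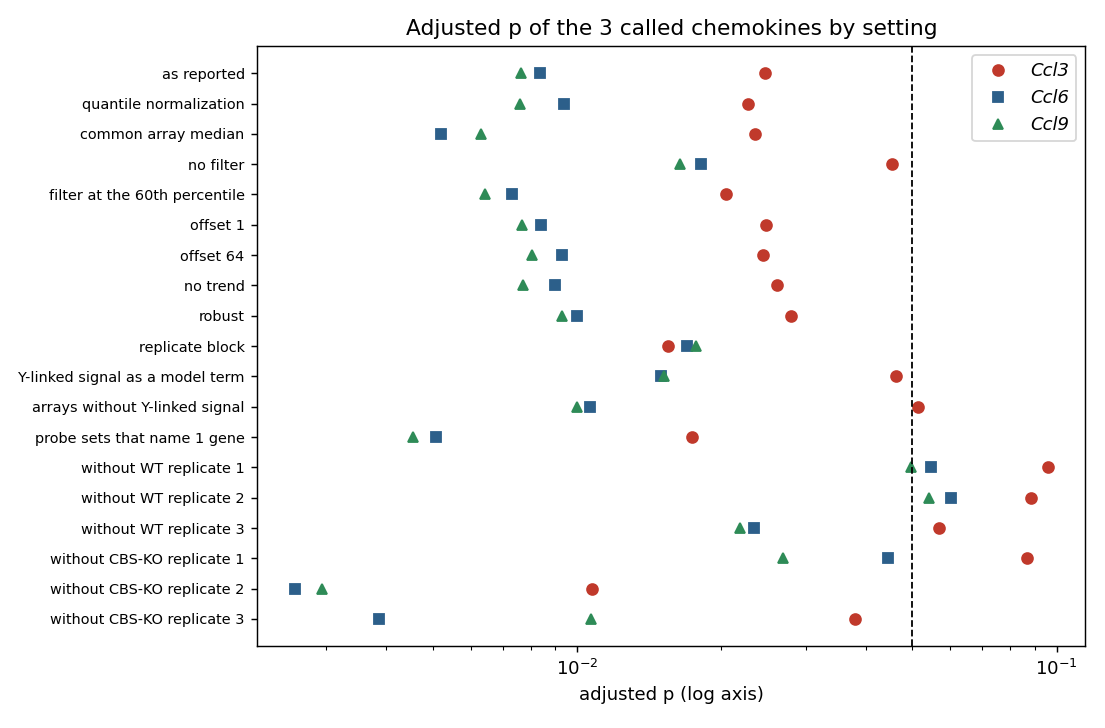
Limma adjusted p (x axis, log scale) of Ccl3, Ccl6 and Ccl9 under each setting (y axis); the dashed line is the threshold of 0.05. Ccl3 lies right of the line in 5 settings, Ccl6 in 2 (without WT 1 and without WT 2) and Ccl9 in 1 (without WT 2). In both settings named for Y-linked signal, CBS-KO 3 alone stands for the CBS-KO group.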

How the data were processed

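The deposited table holds 1 linear intensity per probe set and array, made by the authors; no source used here says how they corrected, normalized or summarised the probes. Per the labels' protocols, a Qiagen kit served for RNA extraction, and the RNA was labelled as biotinylated cRNA by the standard Affymetrix protocol. Column medians lay close together, and whether the arrays were centred is unknown. All 34760 probe sets were transformed to log2(intensity + 16), and 20856 with a mean above the 40th percentile were fitted with lmFit and trended eBayes of limma 3.58.1, run under R 4.3.3 (two-sided, adjusted by Benjamini and Hochberg over all of them). The number of arrays, 3 per group, limits the precision.

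Probe sets were named through the platform annotation, 21553 of them matched to RefSeq symbols by Entrez identifier, with 0 symbols changed; 1321 named several genes and 11799 none. A gene in a list was represented by its brightest tested probe set. All member probe sets are named in the text. From the other lists the text names the called genes of smallest p, up to 6 in a pathway list and up to 3 in a marker list. Ncr1 and Eomes of the NK cell list go beyond that limit. Also named are the measured receptors of the members and marker genes below the filter, in their mean or in WT arrays. The neighbours on chromosome 11 and the uncalled pathway and basophil genes given for comparison were chosen after their values were seen. Members, lists, the filter and the alternatives were chosen with earlier results of these data known. Promoter sequences are RefSeq's for GRCm38.p6. The fitting step was tested on simulated data. Plots used Python 3.11.15 and matplotlib 3.10.9.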

Additional observations from a re-analysis of the deposited data

How the results depend on the processing

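Of 3 members called, 3 were called with no filter, the filter at the 60th percentile, a common array median, quantile normalization, offsets of 1 and 64, no trend, a robust fit, 1-gene probe sets and the replicate block, and 0 to 3 with 1 array left out. Y-linked signal as a term gave 3 and the arrays without Y-linked signal 2, but in both the CBS-KO estimate is CBS-KO 3 alone, assumed to vary like the other arrays, so neither is a check of stability, here or in the counts below. The differences of Ccl3, Ccl6 and Ccl9 stayed positive throughout. Uncalled members changed sign: Ccl5 was -0.20 with Y-linked signal as a term and in the arrays without it, and -0.066 to 0.21 with 1 array left out, and Xcl1 was -0.57 in those Y-linked settings, 0.0051 with a common array median and -0.32 to 0.26 with 1 array left out. Cxcl10 was not tested with the filter at the 60th percentile.

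The fit called 1995 probe sets, 1126 with no filter, 4976 with Y-linked signal as a term, 6658 in the arrays without it and 72 to 6433 with 1 array left out. By list, the called genes with Y-linked signal as a term and in the arrays without it were 5 and 7 for NF-kB, 6 and 7 for interferon, 7 and 7 for activation, 1 and 2 for CD8 T cell and 10 and 10 for CD4 T cell genes, and in the arrays without it 6 for basophil and 4 for B cell genes. With no filter they were 0 for NF-kB, basophil and platelet genes, 1 for dendritic and 2 for CD4 T cell genes. With the filter at the 60th percentile they were 0 for receptors and NF-kB genes, where fewer genes were tested, 2 for activation and 1 each for dendritic and platelet genes. With a common array median they were 3 for activation and 1 each for basophil and platelet genes, with an offset of 64 they were 0 for NF-kB, 2 for activation and 1 for basophil genes, with no trend 2 each for activation and CD4 T cell genes, with a robust fit 1 for basophil and 2 for CD4 T cell genes, and with 1-gene probe sets 3 for activation. With 1 array left out the ranges were 0 to 1 for other chemokines and CD8 T cell genes, 0 to 4 for receptors, 0 to 6 for NF-kB, 0 to 9 for interferon, 0 to 5 for activation, 5 to 14 for neutrophil, 0 to 10 for monocyte, 0 to 6 for NK cell, 0 to 6 for basophil, 0 to 5 for dendritic, 2 to 7 for erythroid, 0 to 3 for platelet, 0 to 3 for B cell and 0 to 10 for CD4 T cell genes. Apart from fewer genes or arrays, the cause was not tested.

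The replicate numbers are shared by both groups, but the labels do not say that they pair the samples. Same-numbered arrays deviated from their group means with correlations of 0.063, 0.158 and 0.108, and every array correlated best with its own number, as a hint from the data only. With the replicate block 2093 probe sets were called and the adjusted p was 0.0155 for Ccl3, 0.0169 for Ccl6 and 0.0177 for Ccl9; 1 other chemokine, 2 activation genes, 1 dendritic gene and 1 platelet gene were called.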

Other observations

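For Cxcl2 the deposited intensity on CBS-KO 3 and on WT 3 was the same value, 42.4. Such ties were not particular to this member, as Cxcl3 had the same log2 level, 6.12, in all CBS-KO arrays and in WT 3. The basophil protease gene Mcpt8, chosen after its values were seen, was at 9.49 and 9.48 in CBS-KO 1 and CBS-KO 3 and at 7.10 in CBS-KO 2, against 6.54 to 7.21 in WT arrays, and its difference of 1.88 did not pass (adjusted p = 0.103).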
